A study of Homo sapiens with 12 samples.

Results

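Expression of 10 genes of the transforming growth factor beta (TGF-beta) and activin pathway was followed in messenger RNA of 2 human lung cell lines. The genes were taken by symbol from a list. They are 10 of the 26485 gene symbols counted, and all 10 were among the 16373 genes with enough reads to be tested. A549 is a lung adenocarcinoma line, and B2B (BEAS-2B) is an immortalised bronchial epithelial line. Both carry the label of wild-type genotype. Each line received 10 µM SR11302 or 50 µM SP600125 for 72 h, or no drug (NT), for which no time is given. SR11302 is a compound used to block the transcription factor AP-1. SP600125 inhibits JNK, the kinase family that phosphorylates Jun. The 6 groups, A549_SR11302, A549_SP600125, A549_NT, B2B_SR11302, B2B_SP600125 and B2B_NT, hold 2 libraries each. Both drugs were dissolved in DMSO. The sample labels give no treatment for the NT cells, while a figure legend of the study names DMSO as the comparison. If the NT cells had no DMSO, drug, DMSO and library preparation cannot be told apart in comparisons with NT. The 2 drugs were used at different doses and each at a single dose and time, so no dose response can be read.

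TGF-beta and activin are secreted ligands that bind pairs of type II and type I receptor kinases on the cell surface. The active type I receptor phosphorylates SMAD2 and SMAD3, which enter the nucleus with SMAD4 and change the transcription of target genes, often together with AP-1. Among those targets are inhibitors of the pathway itself, and in epithelial cells the pathway is known for growth arrest and for the epithelial-mesenchymal transition. TGFB1 and TGFB2 encode ligands, and INHBA encodes the subunit of activin A. TGFBR1 and TGFBR2 encode the type I and type II TGF-beta receptors. FST encodes follistatin, a secreted protein that binds and blocks activin. SMAD3 carries the signal, SMAD7 is the inhibitory SMAD, and SKIL (SnoN) is a nuclear co-repressor of SMAD complexes. TGFBI is a secreted matrix protein first found as a gene induced by TGF-beta.

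The genes lie on hg38 (GENCODE v44) as follows. TGFB1 is on the minus strand at chr19:41301587-41353922 and TGFB2 on the plus strand at chr1:218345336-218444619. INHBA is on the minus strand at chr7:41667168-41705834, TGFBR1 on the plus strand at chr9:99104038-99154192 and TGFBR2 on the plus strand at chr3:30606601-30694142. FST lies at chr5:53480626-53487134, SMAD3 at chr15:67063763-67195173, SKIL at chr3:170357342-170396835 and TGFBI at chr5:136028988-136063818, each on the plus strand, and SMAD7 lies on the minus strand at chr18:48919853-48950965. On the same strand, TGFB1 overlaps the noncoding gene ENSG00000286177 and TGFB2 overlaps TGFB2-OT1. TGFB1, TGFB2, INHBA and SMAD3 overlap genes on the opposite strand, among them HNRNPUL1 at TGFB1, TGFB2-AS1 and INHBA-AS1. TGFBR1 and TGFBR2 overlap the pseudogenes RNA5SP290 and KLHL25P1 on the opposite strand. The strand setting of the counting is not given, so reads of these pairs cannot be told apart.

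The 250 bases before the RefSeq start site (GRCh38.p14) were read for all 10 genes, and are printed for 4. TGFB2, INHBA and TGFBI are shown because their SR11302 responses differed most between the lines, and SMAD7 because it is a feedback gene of the pathway. Each runs 5′ to 3′ on the gene's own strand. The TGFB2 window overlaps an exon of the antisense gene TGFB2-AS1, and the INHBA window lies inside the GENCODE span of the gene. Capitals mark the SMAD box CAGAC, the CRE core TGACGT (the start of a cyclic AMP response element, which Jun-ATF dimers bind) or the AP-1 site TGANTCA, on either strand.
TGFB2, plus strand, chr1:218345086-218345335: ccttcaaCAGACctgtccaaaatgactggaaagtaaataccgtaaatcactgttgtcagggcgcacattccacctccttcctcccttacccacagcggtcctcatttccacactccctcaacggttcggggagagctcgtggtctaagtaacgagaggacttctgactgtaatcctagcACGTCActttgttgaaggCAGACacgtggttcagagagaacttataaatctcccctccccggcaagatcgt
INHBA, minus strand, chr7:41703091-41703340: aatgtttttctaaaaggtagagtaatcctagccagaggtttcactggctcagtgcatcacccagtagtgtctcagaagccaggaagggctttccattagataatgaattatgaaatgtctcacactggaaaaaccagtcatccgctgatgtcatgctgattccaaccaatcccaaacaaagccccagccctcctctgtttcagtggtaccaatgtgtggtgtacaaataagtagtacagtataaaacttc
SMAD7, minus strand, chr18:48950966-48951215: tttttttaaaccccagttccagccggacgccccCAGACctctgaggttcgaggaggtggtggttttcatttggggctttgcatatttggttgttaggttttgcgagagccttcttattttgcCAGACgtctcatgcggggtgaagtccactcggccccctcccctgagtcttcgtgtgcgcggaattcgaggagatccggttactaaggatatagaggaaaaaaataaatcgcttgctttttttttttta
TGFBI, plus strand, chr5:136028738-136028987: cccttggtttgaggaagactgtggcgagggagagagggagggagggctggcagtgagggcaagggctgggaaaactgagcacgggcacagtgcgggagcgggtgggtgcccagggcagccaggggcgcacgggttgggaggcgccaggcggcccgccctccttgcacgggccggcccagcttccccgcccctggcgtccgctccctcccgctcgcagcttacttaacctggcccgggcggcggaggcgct
The TGFB2 window held 2 SMAD boxes and 1 CRE core, which was read as ACGTCA and lay 71 to 66 bases before the start. The SMAD7 window held 2 SMAD boxes, and the INHBA and TGFBI windows held no match. Among the others, SKIL had 3 CRE cores, of which 2 overlap in the palindrome TGACGTCA, and 1 SMAD box, and TGFBR1 had 1 SMAD box. The SKIL and TGFBR1 windows each overlap an exon of their own gene and lie inside its GENCODE span. The single match to TGANTCA was TGATTCA, 160 to 154 bases before the FST start, and the stricter form TGACTCA, searched after that match had been seen, was in 0 of the 10 windows. Over 27305 promoters of the same length, 6.6% held TGANTCA, 4.16% TGACTCA, 7.42% TGACGT and 37.8% CAGAC, so these short motifs are common. A match is a description of the letters and not a bound site.

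Each library held between 13969766 and 24917854 reads counted in genes. Reads falling in no annotated gene made up 14.6 to 20.1% of all tallied reads in the 8 drug-treated libraries, against 23.8 to 25.9% in the 4 NT libraries, and this difference cannot be told apart from treatment. The A549_SR11302 pair differed most within a group. B2B_NT replicate 2 held 30.41 CPM (read counts scaled to a common library size with the TMM method) of AKR1B10, an abundant A549 gene, where replicate 1 held 0.19, and A549_NT replicate 2 held 7.06 CPM of SPARC, a B2B gene, where replicate 1 held 0.33. These levels are 0.545% and 0.292% of those in the other line. Summed over 9 epithelial markers, levels were 14400 to 16570 CPM in A549_NT and 1683 to 1871 in B2B_NT. Summed over 11 mesenchymal markers, they were 926 to 990 CPM in A549_NT and 8724 to 8932 in B2B_NT. Of 9 alveolar type II markers 1 reached 1 CPM in A549_NT, with SFTPA1 and SFTPA2 at 0, and of 6 bronchial basal markers 1 reached 1 CPM in B2B_NT. The summed levels were 64.2 to 75.87 CPM for the alveolar list in A549_NT and 389 to 419 CPM for the basal list in B2B_NT, so each rested largely on 1 gene.

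Untreated A549 cells carried less TGFB2, INHBA, TGFBR1 and FST transcript than untreated B2B cells, and more TGFB1, TGFBR2, SMAD3 and SKIL. Of the 10 genes, 4 were called higher in A549_NT and 4 lower (edgeR quasi-likelihood test, Benjamini-Hochberg adjusted p under 0.05 over all tested genes and a log2 fold change of at least 0.5 either way). The same rule called 56.9% of all tested genes, 30.4% higher and 26.5% lower, so a large share called is the background of this comparison. The libraries of the 2 groups did not overlap for any of the 10 genes, as for 86.9% of all tested genes. The median log2 fold change of the 10 was 0.11, beside 0.05 over all tested genes. In bulk RNA, a smaller share of cells expressing a gene and less RNA per cell cannot be told apart.

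**Figure D1:**
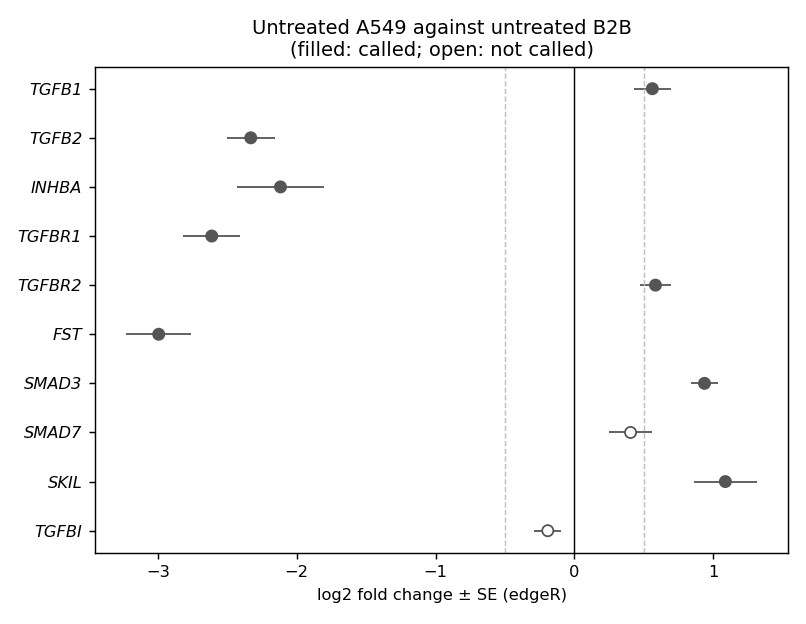
Log2 fold change (A549_NT over B2B_NT) of the 10 genes on the x axis, with bars of 1 SE. Filled points were called, open points were not, and dashed lines mark a log2 fold change of 0.5 either way. FST stands farthest left at -2.99 and SKIL farthest right at 1.09.

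Among the ligands, TGFB2 had 46.97 and 57.88 CPM in A549_NT, against 264 and 264 CPM in B2B_NT, a log2 fold change of -2.33 ± 0.17 (SE, adjusted p = 2.75e-08). INHBA had 0.78 and 0.96 CPM in A549_NT, from 14 and 18 reads, against 3.45 and 4.11 CPM in B2B_NT, from 72 and 101 reads (log2 fold change -2.12 ± 0.31, adjusted p = 3.81e-05). So both ligand genes were lower in A549_NT, and INHBA was scarce in either line. TGFB1 had 176 and 145 CPM in A549_NT, against 107 and 110.2 CPM in B2B_NT (0.56 ± 0.13, adjusted p = 0.00177). Without A549_NT replicate 1 the TGFB1 value was 0.41, under the fold minimum.

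The receptors moved apart. TGFBR1 had 45.91 and 56.66 CPM in A549_NT, against 317 and 311 CPM in B2B_NT (-2.61 ± 0.21, adjusted p = 5.71e-08). TGFBR2 had 168 and 188 CPM in A549_NT, against 119 and 119 CPM in B2B_NT (0.58 ± 0.11, adjusted p = 0.000329). Type I receptor transcript was thus lower and type II receptor transcript higher in A549_NT. The TGFBR2 value was 0.50, just under the minimum, without A549_NT replicate 2.

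FST, the activin trap, had 1.5 and 1.27 CPM in A549_NT, against 10.63 and 11.52 CPM in B2B_NT (-2.99 ± 0.23, adjusted p = 5.02e-08). SMAD3 was abundant in both lines, with 606 and 624 CPM in A549_NT, against 316 and 326 CPM in B2B_NT (0.94 ± 0.10, adjusted p = 1.14e-06). SKIL had 123 and 164 CPM in A549_NT, against 68.34 and 66.85 CPM in B2B_NT (1.09 ± 0.23, adjusted p = 0.000752). The carrier of the signal and its co-repressor were therefore both higher in A549_NT. SMAD7, with 42.08 and 36.37 CPM in A549_NT against 27.87 and 31.35 CPM in B2B_NT, stayed under the fold minimum (0.40 ± 0.15, adjusted p = 0.0327), but passed it at 0.51 without A549_NT replicate 2. TGFBI had 1523 and 1431 CPM in A549_NT, against 1650 and 1724 CPM in B2B_NT, and was not called (-0.19 ± 0.10, adjusted p = 0.1).

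With SR11302, TGFB2, INHBA and TGFBR1 were called higher than in NT in A549 cells. In B2B cells with the same drug, TGFB2, INHBA, TGFBI and, less firmly, SMAD7 were called lower than in NT. Of the 10 genes, 3 were called higher and 0 lower in A549_SR11302 against A549_NT, where 27.8% of all tested genes were called, 14.8% higher and fewer lower. In B2B_SR11302 against B2B_NT, 0 were called higher and 4 lower, where 22.5% of all tested genes were called, 11.4% higher and 11.1% lower. For both counts of 0, the number at an unadjusted p under 0.05 was also 0, as was the number called by DESeq2. At an adjusted p under 0.05 with no fold minimum, SMAD3 and TGFB1 were also lower in B2B_SR11302, and TGFBI higher in A549_SR11302. The median log2 fold change of the 10 was 0.33 in A549, beside 0.02 over all tested genes, and -0.50 in B2B, beside 0.01.

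**Figure D2:**
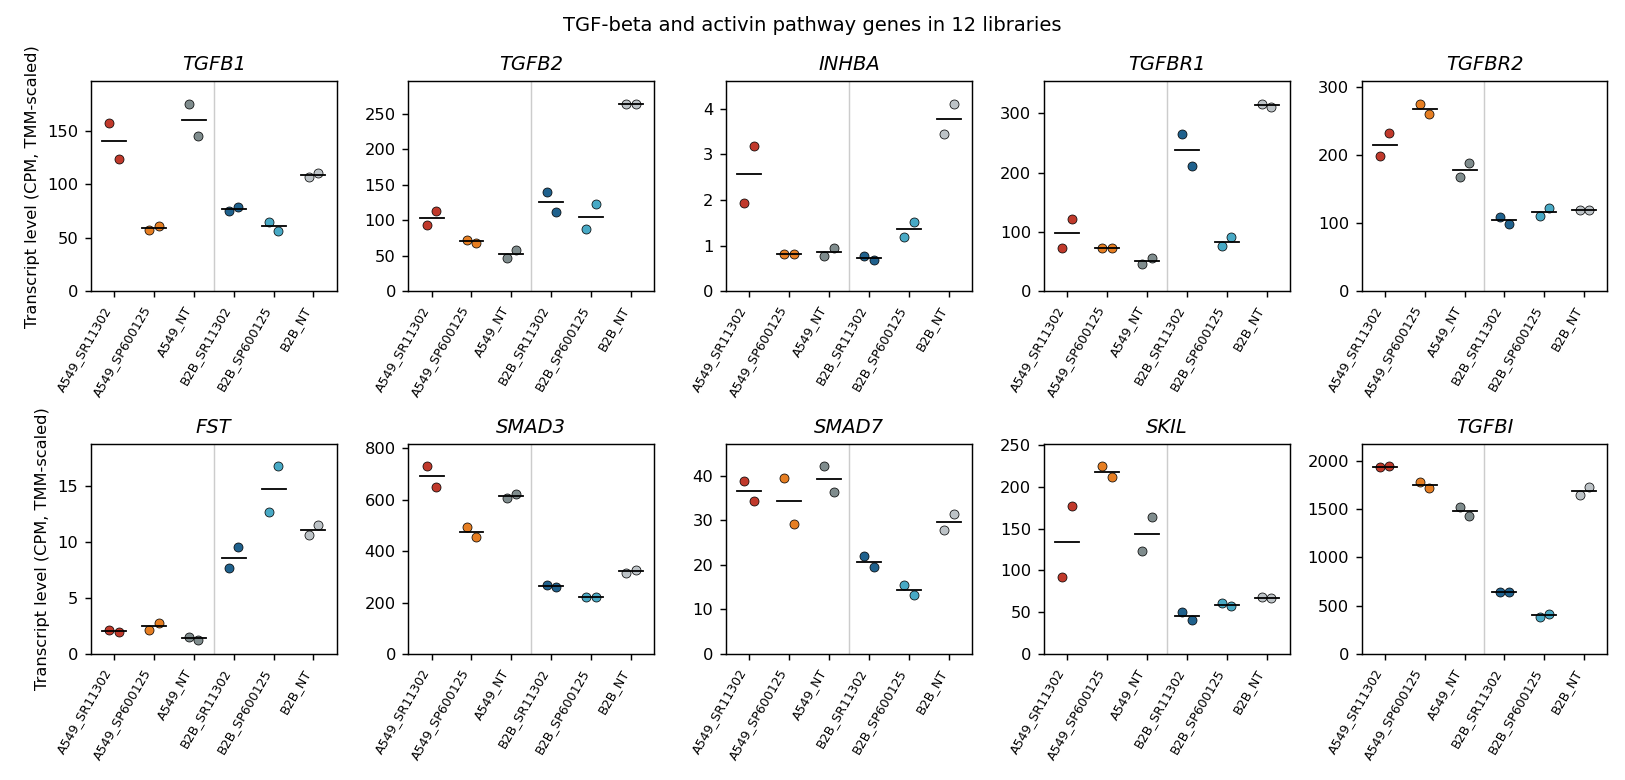
Transcript level in CPM (y axis, from 0, a scale of its own in each panel) of the 10 genes in each of the 12 libraries (points, left to right replicates 1 and 2), with the group mean as a line. TGFB2, TGFBR1 and TGFBI stand highest in B2B_NT among the B2B groups, while in A549 the drug-treated libraries of these 3 genes lie above those of A549_NT.

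TGFB2 had 93.61 and 113 CPM in A549_SR11302, against 46.97 and 57.88 CPM in A549_NT (0.98 ± 0.17, adjusted p = 0.000566). In B2B_SR11302 it had 139 and 112 CPM, against 264 and 264 CPM in B2B_NT (-1.07 ± 0.16, adjusted p = 0.00036). The libraries did not overlap in either line, as was so for 62.3% of all tested genes in A549 and 69.3% in B2B. INHBA had 1.94 and 3.18 CPM in A549_SR11302, from 40 and 76 reads, against 0.78 and 0.96 CPM in A549_NT (1.56 ± 0.33, adjusted p = 0.00232). In B2B_SR11302 it had 0.78 and 0.68 CPM, from 19 and 12 reads, against 3.45 and 4.11 CPM in B2B_NT (-2.36 ± 0.32, adjusted p = 0.000131). INHBA thus ended higher in A549_SR11302 than in B2B_SR11302, the reverse of the order in untreated cells, a difference that was not tested. TGFB1, the other ligand gene, was not called, with 158 and 123 CPM in A549_SR11302 against 176 and 145 CPM in A549_NT (-0.19 ± 0.13, adjusted p = 0.277). It had 75.16 and 78.87 CPM in B2B_SR11302, against 107 and 110.2 CPM in B2B_NT, and missed the fold minimum by a narrow margin (-0.50 ± 0.13, adjusted p = 0.0126).

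TGFBR1 had 73.03 and 123 CPM in A549_SR11302, against 45.91 and 56.66 CPM in A549_NT (0.93 ± 0.20, adjusted p = 0.00259). The replicates of A549_SR11302 stood well apart for this receptor, and without replicate 2 its value was 0.53, still called. In B2B_SR11302 TGFBR1 had 265 and 211 CPM, against 317 and 311 CPM in B2B_NT, and was not called (-0.40 ± 0.19, adjusted p = 0.135). TGFBR2 was not called in either line, at 0.27 ± 0.11 in A549 and -0.19 ± 0.11 in B2B. Of 5 genes abundant in B2B and low in A549, COL1A2 and EYA1 had 0 reads in both A549_SR11302 libraries. COL1A2 had 103 and 102 CPM in B2B_NT, and EYA1 had 0 reads in A549_NT as well. SNAI2 had 16 and 24 reads in A549_SR11302, against 0 and 4 in A549_NT. RGS4 had 3 and 8 reads in A549_SR11302, against 0 and 0 in A549_NT. SPARC had 27.77 and 35.98 CPM in A549_SR11302, against 0.33 and 7.06 CPM in A549_NT.

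TGFBI, the matrix protein, had 1937 and 1942 CPM in A549_SR11302, against 1523 and 1431 CPM in A549_NT, under the fold minimum (0.39 ± 0.10, adjusted p = 0.00731). In B2B_SR11302 it had 638 and 645 CPM, against 1650 and 1724 CPM in B2B_NT (-1.40 ± 0.10, adjusted p = 8.08e-07). SMAD7 had 21.87 and 19.61 CPM in B2B_SR11302, against 27.87 and 31.35 CPM in B2B_NT (-0.51 ± 0.16, adjusted p = 0.0259). This SMAD7 call was lost when any 1 of the 4 libraries was left out, at -0.59 and -0.42 without B2B_NT replicates 1 and 2 and at -0.59 and -0.43 without B2B_SR11302 replicates 1 and 2. SKIL had 91.67 and 177 CPM in A549_SR11302, spanning the 123 and 164 CPM of A549_NT. Its value there was -0.10 ± 0.22 (adjusted p = 0.769), but -0.62 without A549_SR11302 replicate 2 and 0.30 without replicate 1, so no direction is given. In B2B, SKIL was at -0.56 ± 0.23 and was not called (adjusted p = 0.0806). FST was not called in either line, at 0.55 ± 0.28 in A549 and -0.38 ± 0.18 in B2B.

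With SP600125, TGFB1 was called lower than in NT in both lines. In B2B, TGFB2, INHBA, TGFBR1, SMAD3, SMAD7 and TGFBI were also called lower, whereas in A549 TGFBR1, TGFBR2, FST and SKIL were called higher. Of the 10 genes, 4 were called higher and 1 lower in A549_SP600125 against A549_NT, where 48.8% of all tested genes were called, 23.9% higher and 25.0% lower. In B2B_SP600125 against B2B_NT, 0 were called higher and 7 lower, where 43.8% of all tested genes were called, 21.2% higher and 22.6% lower. FST was the 1 gene that was higher in B2B_SP600125 at an unadjusted p under 0.05, and DESeq2 called 0 higher. The libraries did not overlap for 8 of the 10 genes in A549 and 9 in B2B, as for 81.4% and 80.2% of all tested genes. The median log2 fold change of the 10 was 0.33 in A549, beside 0.02 over all tested genes, and -0.94 in B2B, beside 0.01. Summed levels of the 11 mesenchymal markers were also lower, at 2453 to 2746 CPM in B2B_SP600125 against 8724 to 8932 CPM in B2B_NT, with DCN at 0 in both groups. In B2B_SR11302 that sum was 7302 to 7332 CPM, a smaller difference from B2B_NT. The 6 basal markers summed to 43.5 to 62.07 CPM in B2B_SP600125, against 389 to 419 CPM in B2B_NT, with KRT5, KRT14 and KRT15 at 0 in B2B_SP600125, and the 9 epithelial markers to 714 to 869 CPM, against 1683 to 1871 CPM, with ESRP1 at 0 in B2B_SP600125. In A549 the epithelial markers summed to 7037 to 7097 CPM with SP600125 and to 8924 to 11450 CPM with SR11302, against 14400 to 16570 CPM in A549_NT. Such a sum rests on the most abundant markers. CDH1, on the same list, went the other way with SP600125, at 438 and 381 CPM in A549_SP600125 against 122 and 128 CPM in A549_NT. The 11 mesenchymal markers summed to 1108 to 1210 CPM in A549_SP600125 and 1209 to 1334 CPM in A549_SR11302, against 926 to 990 CPM in A549_NT. The 5 endothelial markers summed to 16.75 to 17.81 CPM in A549_SP600125, against 0.28 to 0.32 CPM in A549_NT. In B2B_SP600125 they summed to 9.15 to 13.21 CPM, against 1.51 to 1.53 CPM in B2B_NT. The 6 immune markers summed to 3.93 to 4.10 CPM in A549_SP600125, against 46.35 to 50.63 CPM in A549_NT. The part of these shifts in the results was not tested.

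**Figure D3:**
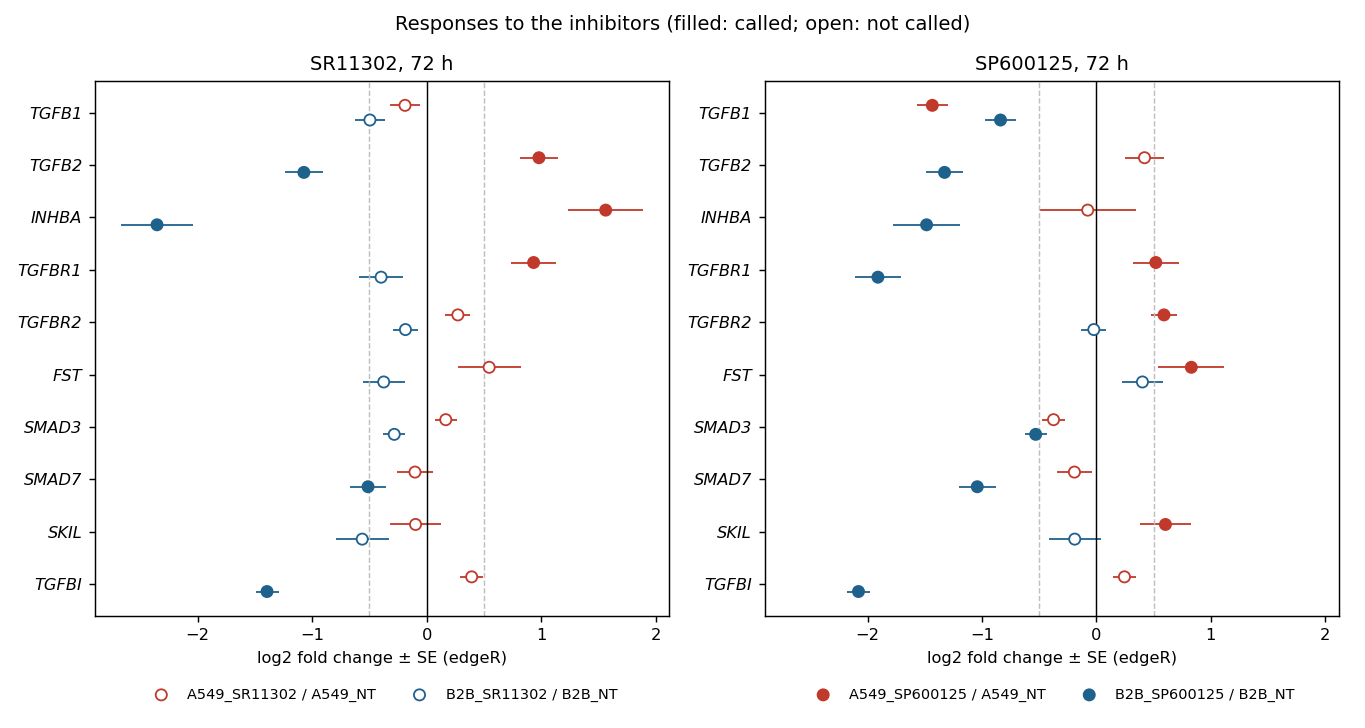
Log2 fold change of the 10 genes after SR11302 (left) and SP600125 (right), each against NT of the same line, with bars of 1 SE. Red points are A549 and blue points B2B, filled where called, and dashed lines mark 0.5 either way. TGFBI lies at -1.40 and -2.08 in B2B and at 0.39 and 0.24 in A549.

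TGFB1 had 57 and 61.55 CPM in A549_SP600125, against 176 and 145 CPM in A549_NT (-1.43 ± 0.14, adjusted p = 1.58e-06). In B2B_SP600125 it had 64.76 and 56.66 CPM, against 107 and 110.2 CPM in B2B_NT (-0.84 ± 0.13, adjusted p = 0.000148). The 2 lines, which differed untreated, thus had overlapping TGFB1 levels after SP600125. TGFB2 had 87.32 and 123 CPM in B2B_SP600125, against 264 and 264 CPM in B2B_NT (-1.33 ± 0.16, adjusted p = 1.85e-05). In A549_SP600125 TGFB2 had 72.87 and 67.48 CPM, against 46.97 and 57.88 CPM in A549_NT, under the fold minimum (0.42 ± 0.17, adjusted p = 0.0451) except without A549_NT replicate 2 (0.58). INHBA had 1.195 and 1.52 CPM in B2B_SP600125, from 23 and 25 reads, against 3.45 and 4.11 CPM in B2B_NT (-1.48 ± 0.29, adjusted p = 0.000797). In A549 it was at -0.08 ± 0.42 on 11 and 12 reads in A549_SP600125, a depth at which a moderate change was not detectable.

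TGFBR1 had 75.99 and 91.16 CPM in B2B_SP600125, against 317 and 311 CPM in B2B_NT (-1.91 ± 0.20, adjusted p = 4.18e-06). It had 73.61 and 73.41 CPM in A549_SP600125, against 45.91 and 56.66 CPM in A549_NT (0.52 ± 0.20, adjusted p = 0.0383). The wide gap in type I receptor transcript between the untreated lines was therefore small after SP600125. TGFBR2 had 275 and 260 CPM in A549_SP600125, against 168 and 188 CPM in A549_NT (0.59 ± 0.11, adjusted p = 0.000438), and was at -0.02 ± 0.11 in B2B. FST had 2.16 and 2.76 CPM in A549_SP600125, against 1.5 and 1.27 CPM in A549_NT (0.83 ± 0.29, adjusted p = 0.0235). In B2B_SP600125 FST had 12.63 and 16.74 CPM, against 10.63 and 11.52 CPM in B2B_NT, and was not called (0.40 ± 0.18, adjusted p = 0.0724) except without B2B_SP600125 replicate 1 (0.56) or with libraries scaled by total reads alone (0.54). SKIL had 225 and 212 CPM in A549_SP600125, against 123 and 164 CPM in A549_NT (0.60 ± 0.22, adjusted p = 0.0327).

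Of the 4 calls of higher level in A549_SP600125, only that of TGFBR2 held whichever of the 4 libraries was left out. TGFBR1 was no longer called without A549_NT replicate 1 (0.38) or without A549_SP600125 replicate 1 (0.52) or 2 (0.53). FST lost its call without A549_NT replicate 2 (0.71) or A549_SP600125 replicate 2 (0.64). SKIL lost its call without A549_NT replicate 1 (0.42) or without A549_SP600125 replicate 1 (0.57) or 2 (0.65). The number of the 10 genes called in this comparison was 5 with all libraries, 3 without A549_NT replicate 1, 3 without A549_SP600125 replicate 1 and 2 without A549_SP600125 replicate 2.

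TGFBI had 385 and 414 CPM in B2B_SP600125, against 1650 and 1724 CPM in B2B_NT (-2.08 ± 0.10, adjusted p = 9.31e-09). In A549_SP600125 it had 1779 and 1720 CPM, against 1523 and 1431 CPM in A549_NT, under the fold minimum (0.24 ± 0.10, adjusted p = 0.0463). SMAD7 had 15.54 and 13.21 CPM in B2B_SP600125, against 27.87 and 31.35 CPM in B2B_NT (-1.04 ± 0.16, adjusted p = 0.000125). The inhibitory SMAD thus fell in B2B together with the ligands and the type I receptor. In A549 its libraries overlapped, with 39.49 and 29.22 CPM in A549_SP600125 against 42.08 and 36.37 CPM in A549_NT. SMAD3 had 222 and 223 CPM in B2B_SP600125, against 316 and 326 CPM in B2B_NT (-0.53 ± 0.10, adjusted p = 0.000452). When libraries were scaled by total reads alone, which moved the median of all genes in this comparison to 0.15, SMAD3 was at -0.39 and under the fold minimum. In A549_SP600125 SMAD3 had 495 and 454 CPM, against 606 and 624 CPM in A549_NT, also under the minimum (-0.37 ± 0.10, adjusted p = 0.00444).

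Whether the response differed between the lines was tested as an interaction, the log2 fold change in A549 minus that in B2B. For SR11302, 4 of the 10 genes were called, all more positive in A549, with 0 more negative also at an unadjusted p under 0.05 and by DESeq2, where 15.8% of all tested genes were called. By direction, 8.34% of all tested genes were called higher and 7.41% lower. They were INHBA (3.92 ± 0.45, adjusted p = 6.78e-05), TGFB2 (2.05 ± 0.23, adjusted p = 5.85e-05), TGFBI (1.79 ± 0.14, adjusted p = 3.25e-06) and TGFBR1 (1.33 ± 0.28, adjusted p = 0.00501). For SP600125, 5 were called more positive in A549 and 1 more negative, where 25.2% of all tested genes were called, 12.1% higher and 13.1% lower. TGFBR1 (2.43 ± 0.28, adjusted p = 5.59e-05), TGFBI (2.32 ± 0.14, adjusted p = 3.35e-07) and TGFB2 (1.75 ± 0.24, adjusted p = 0.000166) led, with SMAD7 (0.85 ± 0.23, adjusted p = 0.0136) and TGFBR2 (0.61 ± 0.16, adjusted p = 0.011) behind them. TGFB1 was the one called lower (-0.60 ± 0.19, adjusted p = 0.0319). TGFB2, TGFBR1 and TGFBI were thus called for both drugs, and the 2 interactions share the NT libraries.

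The 3 weaker calls for SP600125 did not hold in some fits without 1 library, which leave 1 library in a group. In such fits a call can be lost with little change in the value, as for TGFB1 at -0.65 without A549_SP600125 replicate 2. TGFB1 lost its call without A549_NT replicate 1 (-0.45), either B2B_NT replicate (-0.57 and -0.61), either A549_SP600125 replicate (-0.54 and -0.65) or B2B_SP600125 replicate 1 (-0.46). TGFBR2 lost it without A549_NT replicate 1 (0.53) or A549_SP600125 replicate 1 (0.57). SMAD7 lost it without A549_NT replicate 2 (0.75), B2B_NT replicate 2 (0.76), A549_SP600125 replicate 1 (0.62) or B2B_SP600125 replicate 2 (0.74). Without A549_SP600125 replicate 1 the number of genes called was 3 rather than 6. For SR11302 the interaction of SKIL was not called (0.47 ± 0.32), and it was 0.86 and called without A549_SR11302 replicate 1 but -0.04 without replicate 2.

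The 2 drugs were also set side by side within a line, at 50 µM SP600125 and 10 µM SR11302, so the differences are between these treatments and not between compounds at a matched dose. In A549, 4 of the 10 genes were lower with SP600125 and 1 higher, where 37.1% of all tested genes were called, 20.5% lower and 16.6% higher. TGFB1 (-1.25 ± 0.14, adjusted p = 1.12e-05), INHBA (-1.64 ± 0.35, adjusted p = 0.00179), TGFB2 (-0.56 ± 0.17, adjusted p = 0.0133) and SMAD3 (-0.54 ± 0.10, adjusted p = 0.000519) were lower. SKIL was higher (0.70 ± 0.22, adjusted p = 0.0201). TGFB2 lost its call without A549_SR11302 replicate 2 (-0.45) or A549_SP600125 replicate 2 (-0.51), SMAD3 without A549_SR11302 replicate 1 (-0.46) or A549_SP600125 replicate 2 (-0.48). SKIL lost it without A549_SR11302 replicate 1 (0.31) or either A549_SP600125 replicate (0.66 and 0.74), and TGFBR1 became called without A549_SR11302 replicate 1 (-0.74). Without A549_SP600125 replicate 2 the number called was 2. In B2B, 3 were lower with SP600125 and 1 higher, where 33.7% of all tested genes were called, 18.1% lower and 15.6% higher. TGFBR1 (-1.51 ± 0.20, adjusted p = 4.99e-05), TGFBI (-0.68 ± 0.10, adjusted p = 0.000114) and SMAD7 (-0.53 ± 0.16, adjusted p = 0.0187) were lower and FST was higher (0.78 ± 0.18, adjusted p = 0.00381). SMAD7 lost its call without B2B_SR11302 replicate 1 (-0.44) or B2B_SP600125 replicate 2 (-0.42), and TGFB2 became called without the last of these (-0.52).

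Levels of different genes were compared per length, as reads per kilobase of the canonical transcript, scaled to library size (RPKM). TGFBI was the most abundant of the 10 in every group, at 147 to 715 RPKM, and INHBA the least, at 0.12 to 0.63 RPKM. TGFB2 over TGFB1 averaged 0.36 ± 0.11 in A549_SR11302 and 0.56 ± 0.06 in A549_SP600125, against 0.16 ± 0.04 in A549_NT (SD, n = 2 each, as for the ratios that follow). In B2B that ratio averaged 0.77 ± 0.15 with SR11302 and 0.83 ± 0.28 with SP600125, against 1.15 ± 0.03 in B2B_NT. The balance of the 2 ligand transcripts was therefore closer between the lines after either drug. TGFBR1 over TGFBR2 averaged 0.50 ± 0.03 in B2B_SP600125, against 1.85 ± 0.02 in B2B_NT, while in the 3 A549 groups it lay between 0.19 and 0.31. INHBA over FST averaged 0.49 ± 0.20 in A549_SR11302 and 0.13 ± 0.02 in A549_SP600125, against 0.24 ± 0.06 in A549_NT. In B2B it averaged 0.0329 ± 0.0083 with SR11302 and 0.0353 ± 0.00099 with SP600125, against 0.13 ± 0.01 in B2B_NT. These ratios are given as descriptions with no test. INHBA and FST were both scarce in A549, and their ratio leaves out INHBB and FSTL3. FSTL3, counted among the inhibitors of the pathway, averaged 206 CPM in A549_NT and 135 CPM in A549_SR11302 (-0.61 ± 0.14).

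The order of the 6 groups differed from gene to gene. FST had the widest range, at 10.6 times between the highest group mean (B2B_SP600125) and the lowest (A549_NT), with all B2B libraries above all A549 libraries. TGFBR1 (6.12 times), INHBA (5.19), TGFB2 (5.03) and TGFBI (4.86) followed, the first 3 of them highest in B2B_NT. TGFBR2 varied least, at 2.57 times, and stood above B2B in every A549 library, as did SMAD3 and SKIL. Neighbouring groups overlapped for TGFB1 between A549_NT and A549_SR11302 and between both SP600125 groups, and for TGFB2 among the 2 drug-treated B2B groups and A549_SR11302. For SMAD7 the 3 A549 groups overlapped one another and B2B_NT the lowest of them. Neighbours also overlapped for INHBA (A549_NT and A549_SP600125), TGFBR1 (A549_SR11302 and B2B_SP600125) and TGFBR2 (B2B_NT and B2B_SP600125). The same was so for SKIL (A549_NT and A549_SR11302) and TGFBI (A549_SP600125 and B2B_NT).

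The genes most like each member were sought among 9783 genes of at least 10 CPM, by the root mean square difference of log2 CPM centred over the 12 libraries. TGFB2 was nearest to P4HA2, a collagen prolyl hydroxylase (0.24), where the median candidate lay at 0.85. TGFBR1 was nearest to MARCH1 (0.28). TGFB1 was nearest to SHB (0.11) and PTPRS (0.14), and TGFBR2 to PEX13 (0.11) and RAB2A (0.11). SMAD3 was nearest to WDR12 (0.12), SMAD7 to PSMD11 (0.15) and SKIL to ZNF518A (0.12). FST was nearest to ZNF160 (0.26), TGFBI to L3HYPDH (0.29) and INHBA to ALDH1A3 (0.55). These distances describe the 12 libraries, which fall into 6 groups.

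Other genes known to respond to SMAD signalling were counted from a list of 33, of which 32 were tested. In A549_NT against B2B_NT, 9 were called higher and 21 lower, where 30.4% of all tested genes were called higher and 26.5% lower, with a median log2 fold change of -2.14, beside 0.05 over all tested genes. After SR11302, 13 were called higher and 5 lower in A549, and 5 higher and 15 lower in B2B. The shares of all tested genes called higher and lower were 14.8% and 13.0% in A549 and 11.4% and 11.1% in B2B. The list's medians were 0.29 and -0.47, beside 0.02 and 0.01. After SP600125, 7 were called higher and 9 lower in A549, and 3 higher and 23 lower in B2B. The same shares for SP600125 were 23.9% and 25.0% in A549 and 21.2% and 22.6% in B2B. The list's medians were -0.13 and -1.28, beside 0.02 and 0.01. In B2B the list thus held more falls than rises with either drug, as the 10 members did. In the interactions, 16 were called more positive in A549 and 3 more negative for SR11302, beside 8.34% and 7.41% of all tested genes. For SP600125 the counts were 16 and 2, beside 12.1% and 13.1%. The list includes matrix and mesenchymal genes, and the summed mesenchymal markers were lower in B2B_SP600125 than in B2B_NT, as given above. Lists of other ligands, receptors and SMADs held no such excess of falls in B2B_SP600125. Of 8 tested ligands 1 was called higher and 1 lower (median 0.24), beside the same 21.2% and 22.6%. Of 6 tested receptors and co-receptors 1 was called higher and 1 lower (median -0.04). Of 7 tested SMADs and nuclear partners 0 were called either way (median 0.26).

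**Figure D4:**
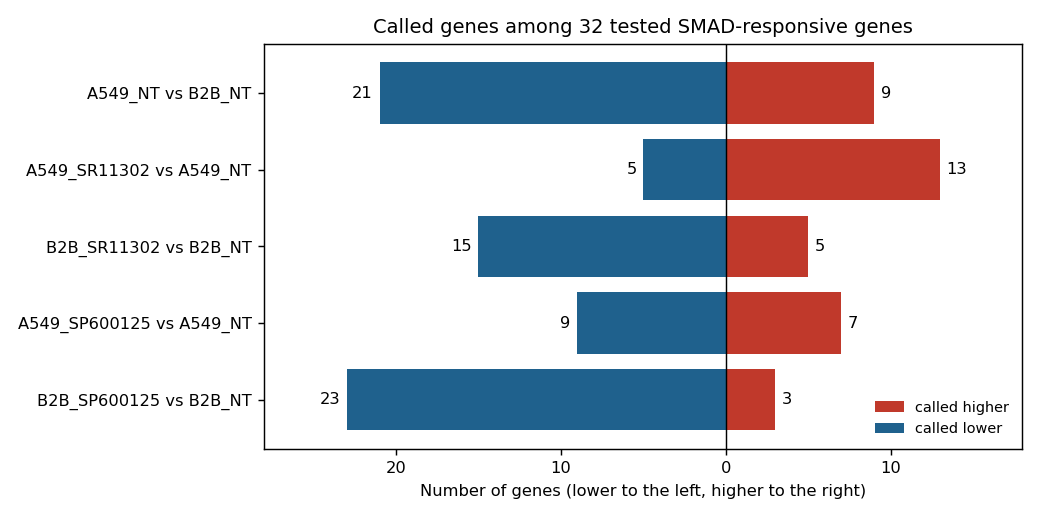
Number of called genes (x axis) among the 32 tested SMAD-responsive genes in 5 comparisons, red for higher and blue for lower in the first-named group. In B2B_SP600125, 23 were lower and 3 higher, and in A549_SR11302, 5 were lower and 13 higher.

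TNC, the matrix glycoprotein tenascin C, averaged 24.19 CPM in B2B_SP600125, against 765 CPM in B2B_NT (-4.99 ± 0.30, adjusted p = 3.45e-08). POSTN, the matrix protein periostin, averaged 14.47 CPM in B2B_SP600125 and 75.59 CPM in B2B_SR11302, against 341 CPM in B2B_NT, and was called lower with both drugs (-4.56 ± 0.30 and -2.17 ± 0.26). TIMP3, an inhibitor of metalloproteinases, went the other way with SR11302, averaging 37.8 CPM in B2B_SR11302 against 7.91 CPM in B2B_NT (2.25 ± 0.19, adjusted p = 2.82e-06). In A549, CDH2 (N-cadherin) averaged 65.66 CPM in A549_SR11302, against 10.98 CPM in A549_NT (2.58 ± 0.15, adjusted p = 3.52e-08), and PDGFB, a platelet-derived growth factor, 25.38 against 6.19 CPM (2.03 ± 0.20, adjusted p = 7.52e-06). IL11, a cytokine, averaged 4.27 CPM in A549_SP600125, against 21.04 CPM in A549_NT (-2.31 ± 0.23, adjusted p = 2.26e-06).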

How the data were processed

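Messenger RNA of A549 and B2B cells was sequenced in 12 libraries, 2 in each of 6 groups of line and treatment. The authors extracted total RNA with TRIzol, removed DNA and prepared libraries with an mRNA kit. They aligned reads to hg38 with STAR (version 2.7.10a), and the deposited values are whole-number counts per gene symbol from HTSeq (version 1.99.2). The annotation version, read length and strand setting were not given in the sources used here. Reads tallied outside genes entered neither library sizes nor tests. Whether the 2 libraries of a group come from separate cultures is not given, so p-values measure the spread between these libraries, which may be technical.

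Counts were fitted in edgeR (version 4.0.16, R version 4.3.3, limma version 3.58.1) with TMM scaling, filterByExpr and the quasi-likelihood test over all 12 libraries, leaving 6 residual degrees of freedom. Calls needed a Benjamini-Hochberg adjusted p under 0.05 over 16373 genes and a log2 fold change of 0.5 or more either way. Standard errors are the log2 fold change over the root of F. DESeq2 (version 1.42.0) was an alternative. The script was tested on simulated data. The 10 members, the lists of other genes and the rule for naming them (the 10 members, up to 2 called genes of each list per comparison with the largest change and at least 10 CPM in the higher group, and the nearest genes by pattern) were chosen with earlier results of these data known. Some genes that rule selects are not printed. Promoters were read from a RefSeq table (GRCh38.p14), in which 10 of 10 members matched. The AP-1 site was first searched as TGANTCA, and as TGACTCA after its match had been seen.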

Additional observations from a re-analysis of the deposited data

Results flagged for a closer look

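By the interaction test, the response of 4 of the 10 genes to SR11302 differed between the lines, where 15.8% of all tested genes were called. For SP600125 it was 6 of the 10, where 25.2% of all tested genes were called. With SR11302, the response in A549 minus that in B2B was 3.92 for INHBA, 2.05 for TGFB2, 1.79 for TGFBI and 1.33 for TGFBR1 on the log2 scale. INHBA and TGFB2 were called higher in A549 and lower in B2B, whereas TGFBR1 was called in A549 and TGFBI in B2B with the other line under the call. With SP600125, the same difference was 2.43 for TGFBR1, 2.32 for TGFBI, 1.75 for TGFB2, 0.85 for SMAD7, 0.61 for TGFBR2 and -0.60 for TGFB1. TGFBR1 was called higher in A549 and lower in B2B with this drug. TGFB1 was called lower in both lines, by more in A549. The SP600125 differences of SMAD7, TGFBR2 and TGFB1 each lost their call in some fits without 1 library, as given above.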

How the results depend on the processing

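With other scalings, filters, tools and designs, 517 of 540 gene values kept direction and side of the threshold, 12 gained a call, 7 lost one and 4 turned in sign. Those 4 were near 0 and uncalled, and arose when libraries were scaled by total reads alone: 0.0167 for SMAD7 and 0.0293 for SKIL in A549_SR11302, 0.00045 for INHBA in A549_SP600125 and 0.12 for TGFBR2 in B2B_SP600125. That scaling moved the median of all genes to 0.14 in A549_SR11302, 0.15 in B2B_SP600125 and 0.10 in A549_SP600125. It also ended the calls of TGFB1 (0.44) and TGFBR2 (0.46) between the untreated lines and of SMAD7 in B2B_SR11302 (-0.43). With the same scaling TGFBI was called higher in A549_SR11302 (0.51), and it stayed lower in B2B_SR11302 (-1.32). TGFB1 in B2B_SR11302 was called with DESeq2 (-0.51).

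Leaving out 1 library gave 440 gene values, of which 11 turned in sign, 35 lost a call and 10 gained one. Those that turned ranged, on the log2 scale, from -0.374 to 0.00282 for TGFB1, from -0.203 to 0.01 for SMAD7 and from -0.624 to 0.301 for SKIL in A549_SR11302, from -0.210 to 0.0813 for INHBA and from -0.418 to 0.0155 for SMAD7 in A549_SP600125, and from -0.0916 to 0.0123 for TGFBR2 in B2B_SP600125. For SKIL in the SR11302 interaction the range was -0.0410 to 0.861, and for SMAD7 between the drugs in A549 it was -0.322 to 0.112. Numbers of the 10 genes called ranged from 2 to 5 in A549_SP600125, from 3 to 5 for the SP600125 interaction and from 2 to 4 for SP600125 against SR11302 in A549. Over all tested genes, the number called ranged from 1375 to 4768 for the SR11302 interaction (2579 with all libraries), from 2741 to 3666 for the SP600125 interaction (4121) and from 2406 to 3227 in B2B_SR11302 (3677). The counts of SMAD-responsive genes, recomputed by a choice made after seeing the data, stayed within 1.5 times.

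Replicate numbers are shared across groups, and whether same-numbered libraries were prepared together is not given. The deviations of same-numbered libraries correlated between -0.256 and 0.24, which cannot decide whether the numbers pair the libraries. With the replicate block, the number of the 10 genes called was 8 between the untreated lines, 3 and 5 in A549 with SR11302 and SP600125, 4 and 7 in B2B, and 4 and 6 for the interactions, the numbers found without the block. INHBA rests on 11 to 101 reads a library, which limits what can be seen of it.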

Other observations

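Genes for latency and activation of TGF-beta were counted from a list chosen with earlier results known, of which 12 were tested. In A549_SR11302, 5 were called higher, where 14.8% of all tested genes were, and in A549_SP600125, 6 higher and 2 lower, where 23.9% and 25.0% were. In B2B, 2 were called lower with SR11302 and 5 with SP600125, where 11.1% and 22.6% of all tested genes were. FBN1, the fibrillin that holds latent TGF-beta in the matrix, averaged 44.2 CPM in A549_SR11302 and 26.87 CPM in A549_SP600125, against 6.97 CPM in A549_NT (2.66 ± 0.21 and 1.94 ± 0.22). LTBP2 averaged 49.66 CPM in A549_SR11302, against 20 CPM in A549_NT, and 40.96 CPM in B2B_SR11302, against 67.79 CPM in B2B_NT, with an interaction of 2.04 ± 0.19. THBS1, thrombospondin 1, which can activate latent TGF-beta, averaged 1070 CPM in B2B_SR11302 and 1175 CPM in B2B_SP600125, against 2116 CPM in B2B_NT.

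INHBB, the other activin subunit, was higher in A549_NT at 237 CPM, against 24.46 CPM in B2B_NT (3.27 ± 0.14), the reverse of INHBA. With SR11302 INHBB was called lower than in NT in both lines. It averaged 154 CPM in A549_SR11302 (-0.62 ± 0.12), where INHBA was called higher, and 11.93 CPM in B2B_SR11302 (-1.035 ± 0.14). It averaged 3.24 CPM in B2B_SP600125, lower than in B2B_NT (-2.93 ± 0.17). ENG, the co-receptor endoglin, averaged 1.19 CPM in A549_NT, against 81.63 CPM in B2B_NT. In B2B_SP600125 it averaged 22.14 CPM, against the same B2B_NT level (-1.88 ± 0.13). Of 17 tested inhibitors and feedback genes, 2 were called higher and 3 lower in B2B_SP600125, where 21.2% of all tested genes were called higher and 22.6% lower, so the list held no larger share of calls than all genes. SMURF2, a ubiquitin ligase that acts on the TGF-beta receptors, averaged 69.03 CPM there, against 302 CPM in B2B_NT (-2.13 ± 0.14). TGIF1, a SMAD co-repressor, averaged 72.7 CPM in B2B_SP600125, against 20.97 CPM in B2B_NT (1.79 ± 0.10).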
